A study of Arabidopsis thaliana with 29 samples.

Results

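The chloroplast genome carries its own genes for part of the photosynthetic machinery, and 32 of these plastid loci were followed in Arabidopsis thaliana plants left without water. The 32 loci were taken by their identifiers as the plastid psa, psb, pet and atp genes and rbcL, leaving out psbA, out of 33681 loci in the table. Of the 32, 22 were above 1 TPM (the deposited unit, a level per length scaled to the same total in every library) in every library and 10 were listed at 0 in all 29 libraries. The 22 measured loci therefore entered the tests, among 18757 loci tested. The locus identifiers are not paired with gene names in the sources used here, so single loci are given by identifier and only the set as a whole by its gene families.

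RNA was sequenced from whole plants of 2 genotypes. The mutant pp7l carries a lesion in PP7L, a nuclear gene for a phosphatase-like protein needed for chloroplast development, in the Col-0 ecotype. The sample labels name the allele pp7l-2 and the series text names pp7l-1, so the mutant is written pp7l. The wild type is Col-0, written Col0. Both grew in soil at 22 °C under 16 h of light (100 µE) and 8 h of dark, and were 3 weeks old when watering stopped. Plants were sampled after 0, 6, 9, 12 and 15 days without water (0 D to 15 D), with 3 libraries in each of the 10 groups except Col0 at 6 D, which has 2 (replicates 1 and 3). No watered plants of the later days are among the samples, so lack of water and age cannot be told apart. The column headers mark replicates as brep, without saying whether these are separate plants or pots, and p-values measure only the spread between these libraries.

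As background, photosystem II and photosystem I capture light in the thylakoid membrane, and the cytochrome b6f complex passes electrons between them. The proton gradient formed on the way drives the plastid ATP synthase. Rubisco, whose large subunit is the product of rbcL, fixes carbon dioxide in the stroma. Each of these complexes joins subunits made in the plastid with subunits encoded in the nucleus, and many plastid genes are transcribed together in long primary transcripts that are then cut and trimmed.

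In the RefSeq annotation (assembly TAIR10.1), the plastid genome of 154478 bases holds 33 protein-coding genes of these 5 families, or 32 without psbA. They are 5 photosystem I genes, 14 photosystem II genes, 6 cytochrome b6f genes, 6 ATP synthase genes and the 1 Rubisco gene. Coding lengths run from 90 to 2253 bases with a median of 246, and 10 genes are shorter than 130 bases, a limit set after the number of loci at 0 was known. No source used here pairs these 10 short genes with identifiers. When the 32 identifiers by number are matched to the 32 genes by position, the 10 short genes fall on the 10 loci at 0. That the identifiers run in order of position is an assumption. The shortest gene is petN, for a small subunit of the cytochrome b6f complex, at Pltd:28089-28178 on the plus strand. It is shown whole, with start and stop codons in capitals. Whether gene length has a part in the values of 0 was not tested.

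petN: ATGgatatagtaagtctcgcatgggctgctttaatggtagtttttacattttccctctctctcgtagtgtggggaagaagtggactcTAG

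Some of these genes also share bases, so reads from the shared stretch can be assigned to either neighbour. The coding sequences of psbD and psbC, for the D2 protein and the CP43 antenna protein of photosystem II, overlap by 53 bases at Pltd:33720-33772 on the plus strand. Capitals mark the start codon of psbC at the left end and the stop codon of psbD at the right end. The coding sequences of atpE and atpB overlap by 4 bases on the minus strand.

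psbD and psbC overlap: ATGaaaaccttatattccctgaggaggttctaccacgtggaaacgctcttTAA

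The 10 loci at 0 in every library were ATCG00080, ATCG00210, ATCG00220, ATCG00510, ATCG00550, ATCG00560, ATCG00570, ATCG00590, ATCG00600 and ATCG00690. A value of 0 in a table without counts can be a failed estimate, and nothing more is drawn from these loci. Outside the 32, 33 of 82 other plastid loci were also at 0 in every library.

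Some libraries stood apart from the rest. Col0 6 D replicates 1 and 3 had a rank correlation across loci of 0.876, against 0.948 or more within the other groups. The part of TPM taken by nuclear rRNA was 25.0% for Col0 12 D replicate 3, and 27.5% and 61.2% for replicates 1 and 3 of Col0 at 15 D, against at most 2.06% in each other library. AT1G15405, a noncoding locus, took 46.0% in replicate 2 of Col0 at 15 D. TPM are shares of a total, so such loci lower the TPM of all others, and their part in the results was not tested beyond the values given below without them. The 10 markers of flowers and seeds that were followed summed to 2.92 to 12.1 TPM in pp7l at 15 D and 0.334 to 0.523 TPM in pp7l at 0 D, and to 69.7 to 203 TPM in Col0 at 15 D and 0.956 to 1.35 TPM in Col0 at 0 D. The markers did not move together. In Col0 at 15 D most of the sum was CRA1, SESA3 and OLEO2, with means of 39.0, 49.1 and 35.6 TPM. AP1, AP3, PI, AG and SEP3 had their highest Col0 means at 9 D. AP1 was lower in Col0 at 15 D (0.0389 TPM) than at 0 D (0.181 TPM). In whole plants, fewer green cells and less plastid RNA per cell cannot be told apart. PP7L itself (AT5G10900) was near 0 in both genotypes, at 0.586 ± 0.184 TPM in pp7l and 0.200 ± 0.0996 TPM in Col0 at 0 D (SD, n = 3 each), so it does not check the genotype labels.

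Transcripts of the 32 loci made up a large share of all TPM in every pp7l group, while in Col0 their share was small at the end. In pp7l it started with 37.9 ± 0.765% on day 0, stood at 33.2 ± 0.746% on day 6, 30.1 ± 1.22% on day 9 and 27.4 ± 0.771% on day 12, and ended with 25.6 ± 0.640% on day 15 (SD, n = 3). In Col0 it started with 38.5 ± 1.64% on day 0, stood at 31.1 ± 2.79% on day 6, 24.3 ± 0.668% on day 9 and 12.0 ± 2.64% on day 12, and ended with 7.97 ± 1.93% on day 15 (SD, n = 3, on day 6 n = 2). The genotypes overlapped at 0 D and 6 D and did not overlap from 9 D on. At 15 D the share was 24.9%, 25.7% and 26.2% in the pp7l libraries, against 9.30%, 8.86% and 5.75% in the Col0 libraries. Of these Col0 libraries, replicate 2 had 0.110% nuclear rRNA and 46.0% AT1G15405.

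**Figure D1:**
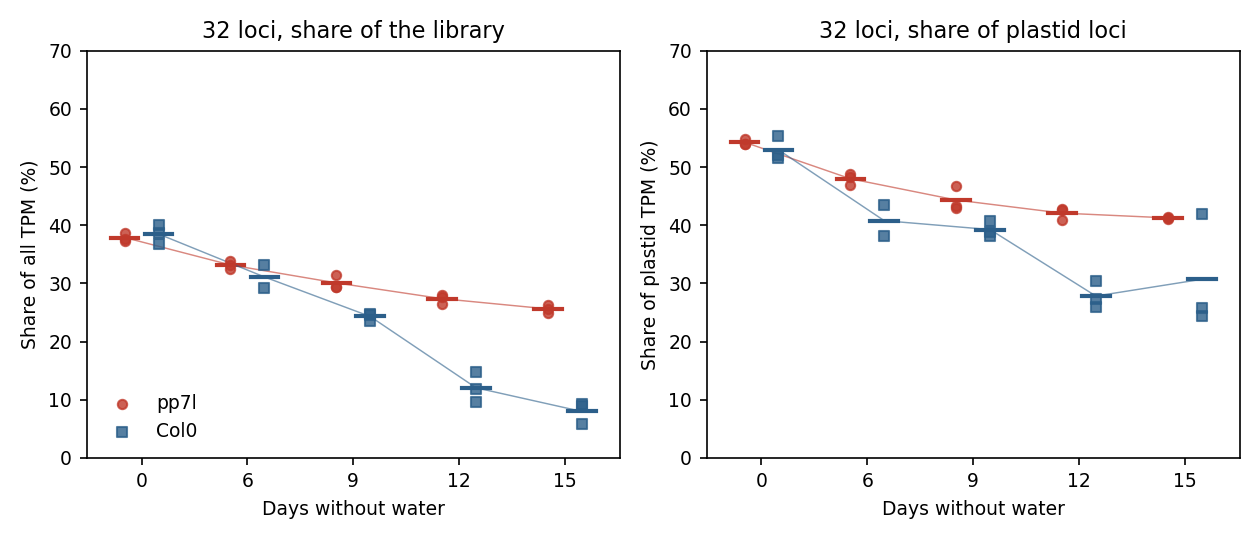
Summed TPM of the 32 loci by days without water, as a percentage of all TPM (left) and of the TPM of all plastid loci (right). Points are libraries (circles pp7l, squares Col0), bars are group means, and lines join the means. At 15 D the share of all TPM is 25.6% in pp7l and 7.97% in Col0, while in the share of plastid TPM 1 of 3 Col0 libraries reaches 42.0%.

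Among plastid transcripts alone, the mean share of the 32 loci was also lower on later days. They held 54.3 ± 0.472% of plastid TPM in pp7l on day 0, then 48.0 ± 1.01% on day 6, 44.3 ± 2.06% on day 9, 42.1 ± 1.02% on day 12 and 41.3 ± 0.164% on day 15 (SD, n = 3). In Col0 they held 53.0 ± 2.03% on day 0, then 40.8 ± 3.72% on day 6, 39.2 ± 1.39% on day 9, 27.8 ± 2.28% on day 12 and 30.7 ± 9.78% on day 15 (SD, n = 3, on day 6 n = 2). At 15 D the Col0 libraries held 24.3%, 25.8% and 42.0%, and the highest is the one with 61.2% nuclear rRNA. On this scale the groups of 15 D overlapped, with 41.4%, 41.1% and 41.3% in pp7l.

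The 22 measured loci differed widely in level. Averaged over all libraries, the highest was ATCG00630 with 58796 TPM, followed by ATCG00490 with 35447, ATCG00140 with 31840, ATCG00580 with 26778 and ATCG00070 with 22191 TPM. The lowest was ATCG00150 with 1043 TPM. Matched by order of position as above, ATCG00630 falls on psaJ, whose coding length is only 135 bases. What part so short a length has in its level was not tested. The 5 highest loci held most of the summed TPM of the set at the start, and a smaller part of it on later days. Their part of it was 72.8% in pp7l on day 0, 65.0% on day 6, 59.5% on day 9, 60.0% on day 12 and 59.5% on day 15, and in Col0 77.8%, 71.4%, 62.9%, 54.2% and 48.5% on the same days.

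The question of the time course is how the plastid transcripts change as water runs out. Differences between groups are log2 changes of TPM + 1 fitted by limma, given with their SE, and a locus is called when its Benjamini-Hochberg adjusted p is under 0.05. Counts are also given after median-of-ratios scaling, which sets the typical tested locus level between libraries, and after scaling to the plastid loci, which does the same for the typical plastid locus the set included. In pp7l few loci were called on the TPM scale in this fit, which takes the spread of each locus from all 10 groups. At 15 D versus 0 D, 1 of 22 loci was called higher (49.3% of all tested loci) and 1 was called lower (5.7% of all tested loci), with a median log2 change of -0.27. In 13 loci all pp7l libraries of 15 D nevertheless lay below all those of 0 D (10.3% of all tested loci). In 3 loci they lay above (63.8%), and in 6 they overlapped (26%). With only the compared groups in the fit 3 loci were called higher and 11 lower, and with array weights 2 and 11. Shares over all tested loci were not taken for these fits. The median tested locus rose by 0.61, which puts the set at -0.88 relative to it, and after median-of-ratios scaling 0 loci were called higher and 18 lower (21.7% and 22.9% of all tested loci). Scaled to the plastid loci, 4 were called higher and 2 lower (56.6% and 4.01% of all tested loci). ATCG00630 held 43038, 46189 and 40712 TPM in pp7l at 15 D, against 99331, 102502 and 93712 TPM in pp7l at 0 D. This was a log2 change of -1.19 ± 0.22 (SE, adjusted p = 8.56e-05 by limma). ATCG00700 held 14420, 15884 and 17608 TPM in pp7l at 15 D and 6028, 5078 and 5898 TPM in pp7l at 0 D, a log2 change of 1.49 ± 0.28 (SE, adjusted p = 1.10e-04 by limma). Neither locus overlapped between the days. After median-of-ratios scaling the change of ATCG00700 was 0.61 and was not called.

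On the TPM scale few loci were called on the earlier days of pp7l in the main fit, while median-of-ratios scaling called 0 higher and 4, 8 and 14 lower at 6 D, 9 D and 12 D (17.1%, 20.4% and 22.2% of all tested loci called lower). Array weights called 4 higher and 5 lower at 6 D, 6 and 7 at 9 D, and 5 and 10 at 12 D. The compared groups alone gave 4 and 3 at 6 D and 3 and 11 at 12 D, and a count within 1.5 times of the main fit at 9 D. At 12 D versus 0 D, 1 locus was called higher (37.8% of all tested loci) and 1 was called lower (6.31% of all tested loci), with a median of -0.25. At 9 D versus 0 D, 2 loci were called higher (27.7% of all tested loci) and 1 was called lower (5.06% of all tested loci), with a median of -0.02. At 6 D versus 0 D, 1 locus was called higher (17.5% of all tested loci) and 0 were called lower (3.9% of all tested loci), with a median of 0.01. ATCG00700 was called higher on each of these days, by 1.36 at 6 D, 1.48 at 9 D and 1.75 at 12 D, and on no day after median-of-ratios scaling. ATCG00630 was called lower by -1.14 at 9 D and -1.10 at 12 D, and under that scaling by -1.72 and -1.80. ATCG00270 was called higher at 9 D (1.15 ± 0.40 SE, adjusted p = 0.0293 by limma), where replicate 3 held 10028 TPM and replicates 1 and 2 held 4730 and 3115 TPM. Without replicate 3 its value was 0.69 and it was not called.

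After 15 days most of these transcripts were lower in Col0 on the TPM scale, and single loci differed widely in how much. In Col0 at 15 D versus 0 D, 1 of 22 loci was called higher (16.7% of all tested loci) and 19 were called lower (34.7% of all tested loci), with a median log2 change of -2.84. The median tested locus changed by -0.23, which leaves -2.60 relative to it. In 19 loci all Col0 libraries of 15 D lay below all those of 0 D (38.7% of all tested loci), in 1 above (14.4%), and in 2 the libraries overlapped (46.9%). Median-of-ratios scaling called 1 higher and 17 lower (37.8% and 33.9% of all tested loci), whereas scaling to the plastid loci called 13 higher and 6 lower (82% and 6.54%).

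ATCG00470 fell the most. It stood at 131, 118 and 26.2 TPM in Col0 at 15 D, against 3571, 4318 and 3256 TPM in Col0 at 0 D. The log2 change was -5.62 ± 0.43 (SE, adjusted p = 2.01e-11 by limma), or -5.38 relative. ATCG00540 changed by -5.18 ± 0.41 and ATCG00490 by -5.14 ± 0.43 (SE, adjusted p = 3.41e-11 and 9.70e-11 by limma). For ATCG00490, among the most abundant loci of the set at the start, the libraries held 2425, 1785 and 505 TPM in Col0 at 15 D, against 47299, 48813 and 41290 TPM in Col0 at 0 D. In each of these 3 loci replicate 3 of 15 D, with the most rRNA, was the lowest, and replicates 1 and 2 were also far below the start.

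ATCG00630, the most abundant locus of all 22, held 20520, 21001 and 18582 TPM in Col0 at 15 D and 123156, 102017 and 108064 TPM in Col0 at 0 D. Its log2 change of -2.47 ± 0.22 was of smaller size than that of the loci above (SE, adjusted p = 3.22e-10 by limma). The 3 libraries of 15 D lay close together for this locus, at 27.5%, 0.110% and 61.2% nuclear rRNA. In the same order they held 14.3%, 46.0% and 16.9% AT1G15405, and the part of either in these values was not tested. When TPM were scaled to the median of the plastid loci the change of ATCG00630 turned to 1.33.

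At the other end, ATCG00700 was the locus called higher. It held 15841, 31134 and 22702 TPM in Col0 at 15 D, against 5876, 5495 and 4047 TPM in Col0 at 0 D. No library of 15 D overlapped those of 0 D, and the log2 change was 2.14 ± 0.28 (SE, adjusted p = 3.56e-07 by limma), 2.37 relative and 2.89 after median-of-ratios scaling. ATCG00280 and ATCG00270 were not called, with -0.15 ± 0.38 and -0.34 ± 0.40 (SE, adjusted p = 0.768 and 0.513 by limma). ATCG00270 held 1967, 1194 and 489 TPM in Col0 at 15 D and 1377, 1223 and 1370 TPM in Col0 at 0 D, and the groups overlapped.

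**Figure D2:**
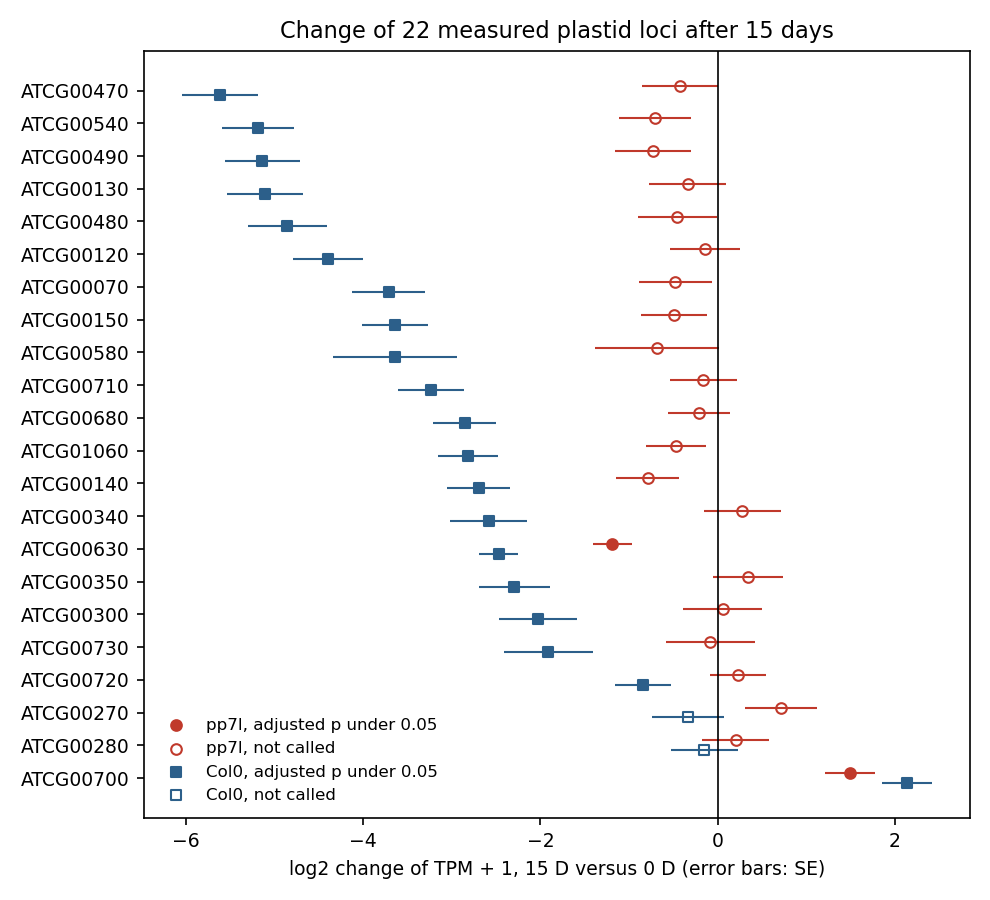
Log2 change of TPM + 1 from 0 D to 15 D for each of the 22 measured loci, ordered by the change in Col0, with circles for pp7l above squares for Col0 and bars for the SE of the fit. Filled symbols have an adjusted p under 0.05 (limma). In Col0 the values run from -5.62 to 2.14 and 20 are filled, while in pp7l they run from -1.19 to 1.49 and 2 are filled. With only the compared groups in the fit, 3 loci are called higher and 11 lower in pp7l. After median-of-ratios scaling 18 loci are called lower in pp7l (22.9% of all tested loci). After scaling to the plastid loci 13 are called higher in Col0 (82%).

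At 12 D most loci were also lower in Col0 on the TPM scale, with a smaller median change. At 12 D versus 0 D, 3 of 22 loci were called higher (61.9% of all tested loci) and 14 were called lower (11.9% of all tested loci), with a median of -1.29, or -2.26 relative to the median tested locus. Median-of-ratios scaling called 0 higher and 19 lower (35.1% and 34.5% of all tested loci), and scaling to the plastid loci 6 higher and 9 lower (81.1% and 6.33%). ATCG00070, ATCG00130 and ATCG00140 had the largest falls. ATCG00070 held 9508, 8337 and 4997 TPM in Col0 at 12 D, against 44376, 45993 and 51285 TPM in Col0 at 0 D, a log2 change of -2.68 ± 0.41 (SE, adjusted p = 1.99e-06 by limma). The changes of ATCG00130 and ATCG00140 were -2.27 ± 0.43 and -2.24 ± 0.36 (SE, adjusted p = 3.58e-05 and 3.00e-06 by limma).

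The 3 loci called higher at 12 D were ATCG00270, ATCG00700 and ATCG00350. Their log2 changes were 1.31 ± 0.40, 1.15 ± 0.28 and 0.97 ± 0.40 (SE, adjusted p = 0.00496, 6.65e-04 and 0.0303 by limma). All of them turned negative after median-of-ratios scaling, to -0.21, -0.37 and -0.55. ATCG00350 moved up and then down along the course. It held 827, 1070 and 671 TPM in Col0 on day 0, 1385 and 3544 on day 6, 3267, 3743 and 3466 on day 9, 1891, 1771 and 1324 on day 12, and 322, 213 and 72.6 on day 15. The libraries of 9 D were all above, and those of 15 D all below, the libraries of the start.

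At 9 D the set had split by direction. In Col0 at 9 D versus 0 D, 5 loci were called higher (64.8% of all tested loci) and 4 were called lower (2.88% of all tested loci), with a median of -0.17, or -1.03 relative. ATCG00350 changed by 2.05 ± 0.40, ATCG00340 by 1.61 ± 0.43 and ATCG00270 by 1.59 ± 0.40 (SE, adjusted p = 7.38e-05, 0.00208 and 0.00117 by limma). ATCG00070 changed by -1.29 ± 0.41, ATCG00630 by -1.14 ± 0.22 and ATCG00150 by -1.03 ± 0.37 (SE, adjusted p = 0.00788, 6.85e-05 and 0.0170 by limma). After median-of-ratios scaling 1 locus was called higher, ATCG00350, and 16 lower (26.3% and 24.9% of all tested loci), and after scaling to the plastid loci 7 higher and 7 lower (70.2% and 2.62%).

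The 6 D group of Col0 rests on a pair of unlike libraries. ATCG00580 held 718 and 33965 TPM in replicates 1 and 3, ATCG00070 held 109633 and 26293 TPM, and ATCG00300 held 17157 and 2833 TPM. Replicate 1 was thus the lower library for the first locus and the higher one for the others. At 6 D versus 0 D, 5 loci were called higher (16% of all tested loci) and 4 were called lower (9.34% of all tested loci), with a median of -0.32. Median-of-ratios scaling called 5 higher and 10 lower (25.8% and 27.9% of all tested loci). Scaling to the plastid loci called 5 higher and 7 lower (24.7% and 9.83%). The largest changes were 2.37 ± 0.45 for ATCG00270, 2.09 ± 0.50 for ATCG00300 and 1.80 ± 0.42 for ATCG00280, and -3.18 ± 0.78 for ATCG00580, -1.83 ± 0.40 for ATCG00140 and -1.57 ± 0.56 for ATCG00730 (SE, adjusted p = 4.69e-04, 0.00307, 0.00275, 0.00410, 0.00151 and 0.0398 by limma). Without replicate 1 of 6 D, the values of ATCG00580, ATCG00140, ATCG00730 and ATCG00300 were -0.40, -0.65, -0.0050 and 0.79, and none of these was called. With only the groups compared in the fit, or with array weights, 0 loci were called, and at an unadjusted p under 0.05 the main limma fit had 11.

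**Figure D3:**
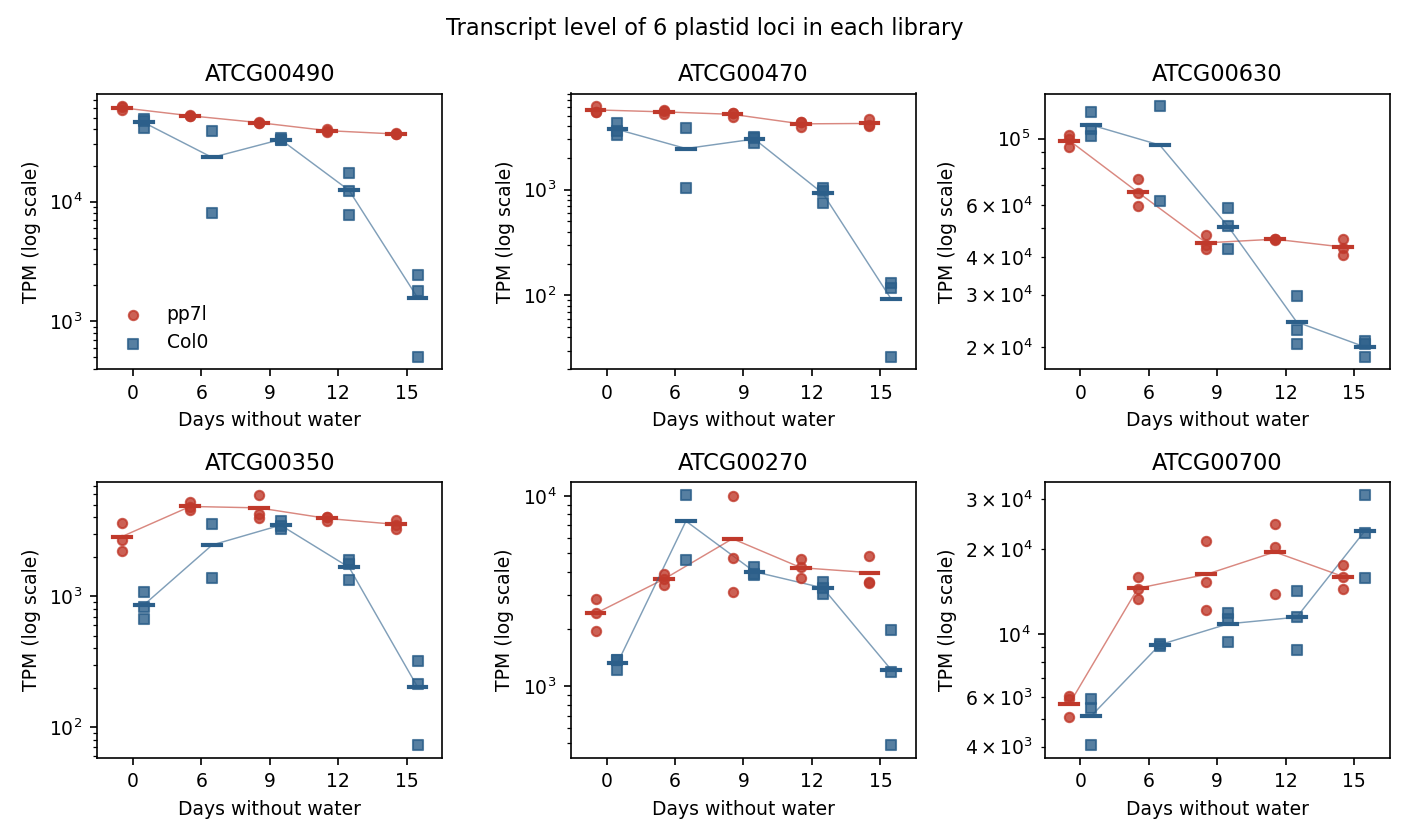
TPM (log scale) of 6 plastid loci in each library by days without water, with circles for pp7l, squares for Col0, bars for group means and lines joining them. ATCG00490 and ATCG00470 end far lower in Col0 than in pp7l, ATCG00350 has its highest Col0 mean at 9 D, and ATCG00700 is higher at 15 D than at 0 D in both genotypes.

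The comparison of genotypes asks whether the mutant differs from the wild type before and during the lack of water. Before it, a few loci of the set were higher in pp7l on the TPM scale. For pp7l versus Col0 at 0 D, 4 of 22 loci were called higher (18.8% of all tested loci) and 0 were called lower (1.43% of all tested loci), with a median of 0.22, or -0.07 relative to the median tested locus. Median-of-ratios scaling called 4 higher and 3 lower (17.4% and 17.7% of all tested loci), and scaling to the plastid loci called 1 higher and 7 lower (2.95% and 9.14%). With only these groups in the fit 11 were called higher and 2 lower, and with array weights 8 and 2. Shares over all tested loci were not taken for these fits. The 4 loci called higher in the main fit were ATCG00350, ATCG00340, ATCG00480 and ATCG00120. ATCG00350 held 2208, 2713 and 3639 TPM in pp7l and 827, 1070 and 671 TPM in Col0, a log2 difference of 1.73 ± 0.40 (SE, adjusted p = 0.00332 by limma). ATCG00340 differed by 1.46 ± 0.43, ATCG00480 by 1.26 ± 0.45 and ATCG00120 by 1.22 ± 0.39 (SE, adjusted p = 0.0185, 0.0445 and 0.0288 by limma).

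ATCG00070 lay in the other direction. It held 25998, 22619 and 20829 TPM in pp7l at 0 D, against 44376, 45993 and 51285 TPM in Col0 at 0 D. The libraries did not overlap, but the difference of -1.03 ± 0.41 did not pass (SE, adjusted p = 0.0767 by limma). After median-of-ratios scaling it was called lower, with -1.61. The call of ATCG00480 was lost with the replicate number as a block (adjusted p = 0.0574 by limma), and the count was 1 without Col0 replicate 1, Col0 replicate 3 or pp7l replicate 3 of 0 D.

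At 6 D the unlike Col0 libraries again set the outcome. For pp7l versus Col0 at 6 D, 8 loci were called higher (25.9% of all tested loci) and 2 were called lower (2.93% of all tested loci). Median-of-ratios scaling called 6 higher and 5 lower (18.7% and 17.6% of all tested loci). Scaling to the plastid loci called 1 higher and 6 lower (2.52% and 12.3%). ATCG00580 differed by 2.87 ± 0.78, ATCG00480 by 1.89 ± 0.50, ATCG00140 by 1.60 ± 0.40, ATCG00070 by -1.54 ± 0.46 and ATCG00300 by -1.78 ± 0.50 (SE, adjusted p = 0.0107, 0.00886, 0.00643, 0.0180 and 0.0121 by limma). Without Col0 6 D replicate 1 no locus was called, and without replicate 3 there were 18.

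At 9 D no locus was called higher (3.05% of all tested loci) or lower (11.6% of all tested loci) in pp7l versus Col0 by limma, 1 had an unadjusted p under 0.05, and the median was 0.41. Median-of-ratios scaling called 9 loci higher and 0 lower there (9.03% and 12.9% of all tested loci), whereas scaling to the plastid loci called 0 higher and 7 lower (0.805% and 66.3%). In 16 of the 22 loci every pp7l library of 9 D was above every Col0 library of 9 D (12.4% of all tested loci), and in 0 below (40.3%). With only these groups in the fit 7 loci were called higher and 0 lower, and with array weights 11 and 0.

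At 12 D most of the set was higher in pp7l on the TPM scale, but not after scaling to the plastid loci. For pp7l versus Col0 at 12 D, 16 loci were called higher (17.2% of all tested loci) and 0 were called lower (25.4% of all tested loci), with a median of 1.24, or 1.42 relative. Median-of-ratios scaling called 18 higher and 0 lower (24.4% of all tested loci in either direction), and scaling to the plastid loci 2 higher and 9 lower (4.27% and 80.2%), with a median of -0.46. ATCG00120 differed by 2.24 ± 0.39, ATCG00470 by 2.20 ± 0.43 and ATCG00480 by 2.17 ± 0.45 (SE, adjusted p = 4.41e-05, 1.54e-04 and 2.81e-04 by limma). The smallest differences were 0.14 for ATCG00280, 0.35 for ATCG00270 and 0.51 for ATCG00720, which were not called. ATCG00120 held 3014, 2828 and 3142 TPM in pp7l and 742, 651 and 524 TPM in Col0, without overlap. The call count fell to 10 without Col0 12 D replicate 3, the library with 25.0% rRNA, and was 15 without that library and the 2 rRNA-rich libraries of 15 D together.

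At 15 D nearly the whole set was higher in pp7l on the TPM scale, as were most tested loci. For pp7l versus Col0 at 15 D, 21 of 22 loci were called higher (77.5% of all tested loci) and 0 were called lower (4.46% of all tested loci), with a median of 2.75. The median tested locus was itself higher by 1.27, so the set stood at 1.48 relative to it. After median-of-ratios scaling 10 loci were called higher and 4 lower (30.9% and 32.7% of all tested loci), and after scaling to the plastid loci 5 higher and 14 lower (6.75% and 77.8%). In 21 loci every pp7l library was above every Col0 library (76% of all tested loci), and in 1 the libraries overlapped (21.1%).

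ATCG00470 held 3971, 4061 and 4669 TPM in pp7l at 15 D, against 131, 118 and 26.2 TPM in Col0 at 15 D. The log2 difference was 5.81 ± 0.43 (SE, adjusted p = 1.57e-11 by limma), a 56.2-fold higher fitted level. ATCG00480 differed by 5.67 ± 0.45 and ATCG00120 by 5.48 ± 0.39 (SE, adjusted p = 5.13e-11 and 1.08e-11 by limma). These 3 stayed higher in pp7l after median-of-ratios scaling, by 3.62, 3.49 and 3.29. ATCG00490 held 36342, 36430 and 37246 TPM in pp7l at 15 D and 2425, 1785 and 505 TPM in Col0 at 15 D.

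A limit of 4, placed at a gap after the values were seen, splits the differences at 15 D into a higher and a lower range. In 8 loci they were above 4, from 4.32 for ATCG00340 upward, and in the 14 others they reached at most 3.04, in ATCG00710. Besides ATCG00340, the higher range held ATCG00470, ATCG00480, ATCG00120, ATCG00540, ATCG00130, ATCG00490 and ATCG00350. All 8 were also called higher after median-of-ratios scaling, where 10 of 22 loci were. After scaling to the plastid loci only 5 of 22 were called higher, so not all 8 kept the call. ATCG00280 and ATCG00630 were called higher on the TPM scale by 1.02 ± 0.38 and 1.11 ± 0.22 (SE, adjusted p = 0.0150 and 4.85e-05 by limma), but lower by -1.18 and -1.10 after median-of-ratios scaling. ATCG00700 was the locus not called, with -0.49 ± 0.28 (SE, adjusted p = 0.108 by limma) and -2.70, called lower, after median-of-ratios scaling.

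**Figure D4:**
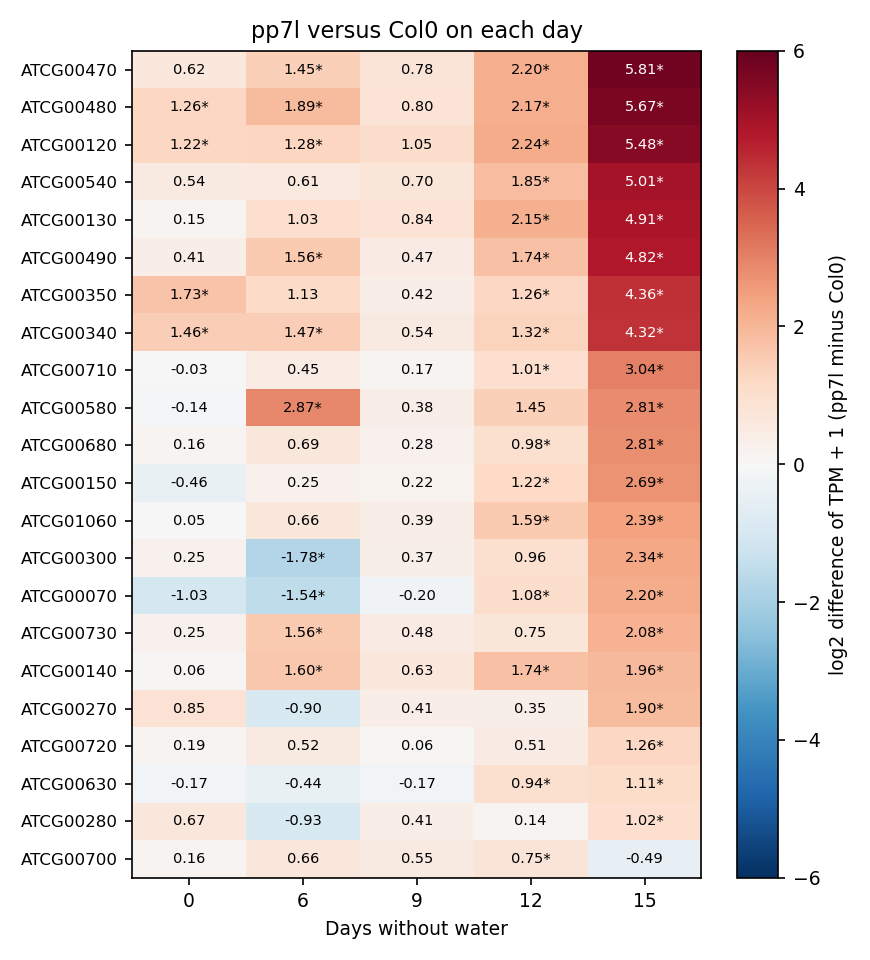
Fitted log2 difference of TPM + 1 between pp7l and Col0 on each day for the 22 measured loci, with red for higher in pp7l, blue for lower in pp7l and an asterisk for an adjusted p under 0.05 (limma). The asterisks number 4 on day 0, 10 on day 6, 0 on day 9, 16 on day 12 and 21 on day 15, where the difference of ATCG00470 is 5.81 and that of ATCG00700 is -0.49. At 15 D 10 loci are called higher and 4 lower after median-of-ratios scaling (30.9% and 32.7% of all tested loci). After scaling to the plastid loci 5 are called higher and 14 lower (6.75% and 77.8%).

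The difference in change was tested directly, as the change of pp7l from 0 D minus that of Col0. To 15 D, 19 of 22 loci were called higher (51% of all tested loci) and 0 were called lower (3.39% of all tested loci), with a median of 2.75, or 1.87 relative. ATCG00470 had 5.19 ± 0.61, ATCG00130 had 4.77 ± 0.61 and ATCG00540 had 4.48 ± 0.57 (SE, adjusted p = 3.02e-07, 1.11e-06 and 1.12e-06 by limma). The 3 loci not called were ATCG00270 with 1.05, ATCG00280 with 0.36 and ATCG00700 with -0.65 ± 0.40 (SE, adjusted p = 0.118, 0.575 and 0.166 by limma). Median-of-ratios scaling called 11 higher and 1 lower (23.3% and 27.6% of all tested loci), and scaling to the plastid loci 6 higher and 11 lower (6.33% and 71%), with a median of -0.79.

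To 12 D, 7 loci were called higher (9.02% of all tested loci) and 0 were called lower (32.6% of all tested loci), with a median of 1.03. ATCG00070 had 2.11 ± 0.59, ATCG00130 had 2.00 ± 0.61 and ATCG00140 had 1.68 ± 0.50 (SE, adjusted p = 0.00566, 0.0106 and 0.00950 by limma). Median-of-ratios scaling called 17 higher and 0 lower (22.5% and 23.6% of all tested loci), and scaling to the plastid loci 4 higher and 5 lower (5.01% and 69.5%). To 6 D, 0 loci were called higher (1.92% of all tested loci) or lower (1.7% of all tested loci) by limma, and 5 had an unadjusted p under 0.05. Median-of-ratios scaling called 3 higher and 4 lower there (16.1% and 14.5% of all tested loci). To 9 D, 0 were called higher (0.512% of all tested loci) or lower (15% of all tested loci) by limma, and 1 had an unadjusted p under 0.05. There median-of-ratios scaling called 6 higher and 0 lower (5.19% and 9.43% of all tested loci).

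The make-up of the set shifted toward ATCG00700, most of all in Col0. This locus held 1.50% of the summed TPM of the set in pp7l on day 0, 4.38% on day 6, 5.37% on day 9, 7.10% on day 12 and 6.23% on day 15. In Col0 it held 1.34% on day 0, 2.96% on day 6, 4.47% on day 9, 10.02% on day 12 and 30.6 ± 11.9% on day 15 (SD, n = 3). ATCG00490 behaved the other way in Col0, with 11.9% of the set at 0 D and 1.83% at 15 D, while in pp7l it held 16.0% at 0 D and 14.3% at 15 D. Matched by order of position as above, ATCG00700 falls on psbN, with 132 coding bases on the minus strand between plus-strand genes. The strand setting is not stated, and the part of length or strand in the TPM of ATCG00700 was not tested.

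Some loci with neighbouring numbers had like values and others did not. ATCG00340 and ATCG00350 changed by -2.58 and -2.29 in Col0 at 15 D versus 0 D, and by 1.61 and 2.05 at 9 D versus 0 D. ATCG00470 and ATCG00480 changed by -5.62 and -4.86, and ATCG00120 and ATCG00130 by -4.40 and -5.11, in Col0 at 15 D versus 0 D. ATCG00270 and ATCG00280 had -0.34 and -0.15 there. ATCG00130 and ATCG00140, with -5.11 and -2.69, were further apart, as were ATCG00710 and ATCG00720, with -3.23 and -0.84. ATCG00700 and ATCG00710 had opposite signs, with 2.14 ± 0.28 and -3.23 ± 0.38 (SE).

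The other plastid loci, of which 49 were tested, fell in Col0 as the set did. In pp7l at 15 D versus 0 D, 3 of the 49 were called lower and 2 higher (5.7% and 49.3% of all tested loci). Their median was -0.07, beside the median of -0.27 in the set. Median-of-ratios scaling called 24 lower and 0 higher there (22.9% and 21.7%), and scaling to the plastid loci 4 lower and 6 higher (4.01% and 56.6%). In Col0 at 15 D versus 0 D, 46 were called lower and 0 higher (34.7% and 16.7% of all tested loci). Their median was -3.94, beside the -2.84 of the set. Median-of-ratios scaling called 46 lower and 0 higher in Col0 (33.9% and 37.8%), and scaling to the plastid loci 18 lower and 14 higher (6.54% and 82%). For pp7l versus Col0 at 15 D, 46 were called higher and 0 lower (77.5% and 4.46% of all tested loci). Their median was 4.54, beside the 2.75 of the set. Median-of-ratios scaling called 43 higher and 2 lower there (30.9% and 32.7%). Scaling to the plastid loci called 18 higher and 11 lower (6.75% and 77.8%). Scaled to the median of the tested plastid loci, the set in Col0 at 15 D versus 0 D had a median of 0.96, beside -0.27 in the other plastid loci and 2.22 in all tested loci. The difference between the set and the other plastid loci was not tested.

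Nuclear genes for subunits of the same complexes, of which 31 were measured, mostly fell in both genotypes. They comprise 12 genes for photosystem I, 10 for photosystem II, 2 for cytochrome b6f, 3 for ATP synthase and 4 for the small subunit of Rubisco. In pp7l at 15 D versus 0 D, 23 of 31 were called lower and 1 higher (5.7% and 49.3% of all tested loci). Their median was -1.64, beside the median of -0.27 in the 22 plastid loci. RBCS3B, for a small subunit of Rubisco, had -3.57 ± 0.53 there (SE, adjusted p = 7.49e-06 by limma). In Col0 at 15 D versus 0 D, 30 were called lower and 0 higher (34.7% and 16.7% of all tested loci). Their median was -6.68, beside the -2.84 of the plastid loci. The medians of the 5 complexes in Col0, in the order above, were -6.90, -7.01, -4.15, -5.45 and -7.26.

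The nuclear gene that changed most in Col0 was PSAN, for a luminal subunit of photosystem I, with 3.21 ± 1.41 TPM in Col0 at 15 D and 1436 ± 50.7 TPM in Col0 at 0 D (SD, n = 3 each). ATPC2 was the one not called, near 0 at 0.198 ± 0.167 TPM in Col0 at 15 D and 0.170 ± 0.115 TPM in Col0 at 0 D (SD, n = 3 each). For pp7l versus Col0 at 15 D all 31 were called higher (77.5% of all tested loci), with a median of 4.90, beside 1.27 in all tested loci. Median-of-ratios scaling also called all 31 higher (30.9%), while scaling to the plastid loci called 13 higher and 3 lower (6.75% and 77.8%). At 0 D 1 was called higher, ATPC2, and 0 lower (18.8% and 1.43% of all tested loci). After median-of-ratios scaling the counts at 0 D were 1 higher and 17 lower (17.4% and 17.7%). After scaling to the plastid loci they were 0 higher and 8 lower (2.95% and 9.14%). The gap between nuclear and plastid genes was not tested.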

How the data were processed

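Total RNA of 29 whole-plant libraries was sequenced after Illumina TruSeq preparation, per the labels' protocols; whether polyadenylated RNA was selected is not given in the sources used here. The submitters' processing notes name Trimmomatic, FastQC and Salmon, without versions, and the build TAIR10. The authors deposited TPM per locus; counts are not used here, so depth and counting error are unknown, and the strand setting is not stated. No column was left unused, and 0 pairs of libraries were identical.

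TPM were tested as deposited, as log2(TPM + 1), for 18757 loci with at least 1 TPM in at least 3 libraries. A limma 3.58.1 model (R 4.3.3, data.table, version 1.17.8) of 10 group means over all 29 libraries (19 residual degrees of freedom, variance trend) gave each contrast, with Benjamini-Hochberg adjustment over all tested loci within a comparison. A fold change on this scale understates that of low loci. "Relative" values have the change of the median tested locus subtracted. The method was tested on simulated data. Comparisons of later days share the 0 D libraries, and those of genotypes share groups with them.

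The plastid loci, nuclear subunit genes and marker lists were chosen with earlier results of these data known. Loci named are those with the highest level, the largest and smallest change in Col0 at 15 D, and in each other comparison that calls any the 3 largest and 3 smallest changes. Locus pairs with neighbouring numbers, ATCG00070 at 0 D and the loci used to show unlike libraries were chosen after their values were seen. So was the limit of 4 for the genotype differences at 15 D. The rule also ordered loci by complex, which could not be applied without names for the identifiers. Of 32 listed nuclear genes 31 were present, and 21 of their symbols matched RefSeq exactly. RefSeq TAIR10.1 was used only for gene annotation and sequence of the plastid, with coordinates counted from 1. Libraries of the same replicate number were checked for pairing after removal of group means: 4 of 37 pairs correlated above 0.1 across loci (range -0.11 to 0.26), and all 3 pairs did in 1 of 13 comparisons, pp7l versus Col0 at 15 D, where the block left the count at 21. Alternatives changed the pseudocount, filter, scaling, loci in the total, weights, samples in the fit and block, or dropped the libraries 1 at a time. Figures used matplotlib 3.10.9 in Python 3.11.15.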

Additional observations from a re-analysis of the deposited data

Results flagged for a closer look

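The changes of the plastid loci differed between genotypes by the test of the difference itself. From 0 D to 12 D, 7 of 22 loci had a called difference in change between pp7l and Col0, all higher, beside 9.02% of all tested loci called higher and 32.6% called lower. From 0 D to 15 D, 19 loci had one, all higher, beside 51% of all tested loci called higher and 3.39% called lower. The direction rests on the scale: scaled to the plastid loci, 4 were called higher and 5 lower to 12 D, and 6 higher and 11 lower to 15 D. Nuclear rRNA loci and AT1G15405 held large parts of some Col0 libraries of 12 D and 15 D. With those loci taken out of the total the numbers, in either direction, were 8 and 14, and without the 3 rRNA-rich libraries 9 and 16. Shares over all tested loci were not taken for these settings.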

How the results depend on the processing

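The counts of called plastid loci (of 22, both directions together) held within 1.5 times under a pseudocount of 0.1 and the stricter filter of 5 TPM in every comparison, and those of Col0 at 12 D and 15 D versus 0 D and of pp7l versus Col0 at 15 D under every setting tried, but such totals hide direction. Scaling to the plastid loci changed the counts of 3 higher and 14 lower to 6 and 9 for Col0 at 12 D versus 0 D, 1 and 19 to 13 and 6 at 15 D, 16 and 0 to 2 and 9 for pp7l set against Col0 at 12 D, 21 and 0 to 5 and 14 at 15 D, and 19 and 0 to 6 and 11 for the difference in change to 15 D. Values without a library from a group of few assume that a lone library varies like the other groups. Shares over all tested loci were taken only for the main fit and the 2 scalings. Counts of plastid loci under the other settings therefore cannot be set against all loci. Median-of-ratios scaling gave 15 for Col0 at 6 D versus 0 D (9 as reported), 17 at 9 D (9), 4, 8, 14 and 18 for pp7l at 6 D, 9 D, 12 D and 15 D versus 0 D (1, 3, 2 and 2), 7 and 9 for pp7l against Col0 at 0 D and 9 D (4 and 0), and 7, 6, 17 and 12 for the difference in change to 6 D, 9 D, 12 D and 15 D (0, 0, 7 and 19). Scaling to the median of all tested plastid loci, chosen after seeing the data in place of a planned version without plastid rRNA loci that was not run because the identifiers are not named, gave 14 for Col0 at 9 D, 2, 6 and 6 for pp7l at 6 D, 12 D and 15 D, 8 (1 higher) and 7 (0 higher) for pp7l against Col0 at 0 D and 9 D, and 3 and 2 for the difference in change to 6 D and 9 D. Array weights gave 0 and 16 for Col0 at 6 D and 9 D, 9, 13, 15 and 13 for pp7l at 6 D, 9 D, 12 D and 15 D, 10, 0 and 11 for pp7l against Col0 at 0 D, 6 D and 9 D, and 5 and 16 for the difference in change to 9 D and 12 D. A fit of the compared groups alone gave 0 and 16 for Col0 at 6 D and 9 D, 7, 14 and 14 for pp7l at 6 D, 12 D and 15 D, 13, 0 and 7 for pp7l against Col0 at 0 D, 6 D and 9 D, and 8 and 16 for the difference in change to 9 D and 12 D. No filter gave 1 and 1 for pp7l at 9 D and 12 D, 4 for pp7l against Col0 at 6 D and 3 for the difference in change to 12 D, and a pseudocount of 10 gave 2 for pp7l at 6 D and 1 for pp7l set against Col0 at 9 D. Without nuclear rRNA loci and AT1G15405 the counts were 2, 4 and 4 for pp7l at 6 D, 12 D and 15 D, 16 and 3 for pp7l against Col0 at 6 D and 9 D, and 3 and 1 for the difference in change to 6 D and 9 D. Without the 3 rRNA-rich libraries they were 3, 5 and 5, 17 and 3, and 3 and 2 in the same order. For pp7l at 15 D versus 0 D, array weights called 2 higher and 11 lower, and the compared groups alone 3 higher and 11 lower.

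Leaving out each library in turn gave 5 to 12 for Col0 at 6 D versus 0 D, 1 to 4 for pp7l against Col0 at 0 D, 0 to 18 at 6 D, 10 to 15 at 12 D, and 0 to 11 for the difference in change to 6 D, the last 11 without Col0 6 D replicate 3. The count at 0 D was 1 without Col0 replicate 1, Col0 replicate 3 or pp7l replicate 3. With the replicate number as a block the counts were 6 for Col0 at 6 D versus 0 D, 3 and 9 for pp7l against Col0 at 0 D and 6 D and 18 for the difference in change to 15 D, and equal to those reported in the other comparisons. Among named loci the block ended the calls of ATCG00730 in Col0 at 6 D versus 0 D (adjusted p = 0.0524) and ATCG00480 in pp7l versus Col0 at 0 D (adjusted p = 0.0574, limma). Directions of named loci reversed in 10 cases. In Col0 at 12 D versus 0 D, median-of-ratios scaling gave -0.55 for ATCG00350, -0.37 for ATCG00700 and -0.21 for ATCG00270. In Col0 at 15 D versus 0 D, scaling to the plastid loci gave 1.33 for ATCG00630. In pp7l versus Col0 at 15 D, ATCG00280 had -1.18 under median-of-ratios scaling, -3.24 scaled to the plastid loci and -0.13 without nuclear rRNA loci and AT1G15405, and ATCG00630 had -1.10, -3.16 and -0.037. The cause was not tested. Depth is unknown, so what it limits could not be judged.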
